A study of Mus musculus with 12 samples.

Results

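The difference between the DDC responses of 2 genotypes of mouse hepatocytes was measured in peak lists of accessible chromatin. For each region it is the DDC effect in Fbxl5-deleted mice minus the DDC effect in floxed controls, called the interaction below. It was computed for 138505 of 292589 regions merged from the lists, namely those on chromosomes 1 to 19 and X that were held by at least 3 of the 12 libraries. These regions were divided by distance to genes into 20146 gene-end (within 1 kb of either end of a protein-coding gene), 68181 intragenic and 50178 intergenic regions. They were also divided into tertiles by strength (mean value over all libraries) and into tertiles by peak width, each of 46168 or 46169 regions.

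ATAC-seq, which tags open DNA with sequencing adapters by means of a transposase, was run on hepatocytes that had been separated by collagenase perfusion from 12 mice. Of the 4 groups of 3 mice, Alb-Cre/FBXL5F/F mice, here called Fbxl5-deleted, received 0.1% DDC (3,5-diethoxycarbonyl-1,4-dihydrocollidine) or a standard diet for 2 weeks, and FBXL5F/F mice, here called floxed controls, received the same 2 diets. All 4 groups carry the floxed Fbxl5 alleles, and Cre is driven by the albumin promoter, which is active in hepatocytes and in the fetal cells that give rise to them and to bile duct cells. Which cells of these preparations lost the gene was not tested. The controls carry no Cre, and the sources used here do not give the ages and sexes of the mice.

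FBXL5 senses iron and, as part of a ubiquitin ligase, marks IRP2, an iron regulatory protein, for degradation, so its loss from hepatocytes stabilises IRP2, which raises iron uptake through the transferrin receptor and lowers the storage protein ferritin. DDC blocks ferrochelatase, the last enzyme of heme synthesis, which leads to porphyrin plugs in bile ducts, cholestasis and a ductular reaction. Open chromatin marks promoters and enhancers, and promoters rich in CpG are usually open in every cell type, whereas enhancers and CpG-poor promoters tend to differ between states.

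The lists hold no read counts, so depth is known only through the peaks. A peak's value is its fold enrichment over the background of its own library, ranked within the library and mapped to a common log2 scale, so every difference is relative to the other regions of that library. The lists held 168961 to 191700 peaks in Fbxl5-deleted DDC, 151086 to 261938 in Fbxl5-deleted standard, 179709 to 202874 in control DDC and 137004 to 151794 in control standard libraries, and the strongest 137004 of each were used. Fbxl5-deleted standard libraries 1 and 3 stood apart, with 261938 and 260515 peaks and the lowest inferred background heights (0.636 and 0.748 fragments, against 0.877 to 1.32 in the other 10). Peaks that reached a −log10 q of 5 numbered 70035 to 78838 in Fbxl5-deleted DDC, 46942 to 68884 in Fbxl5-deleted standard, 76142 to 86730 in control DDC and 65933 to 70507 in control standard libraries. The part of these differences between libraries in the results below was not tested, except where a value without libraries is given. Another exception is the interaction fit with background height or median fold enrichment of each library as a covariate. At Fbxl5 itself, the region at the gene end (chromosome 5, 43781400 to 43782725, mm10) had an interaction of −0.24 ± 0.26 log2 (SE), and the one at the other end (43745212 to 43745590) had 0.12 ± 0.44 (limma, adjusted p = 0.932 and 0.982). The sources used here do not say which part of the gene is removed, so neither region checks the deletion.

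Sequences are shown for 4 promoters. The first 3 are those of the gene-end regions among the regions of lowest interaction p, where the DDC effects of the genotypes pointed in opposite directions. The last one is a CpG-poor promoter at which DDC raised accessibility in both genotypes. Each is the 250 bases upstream of the transcription start, 5′ to 3′ in the sense of the gene (RefSeq, GRCm38.p6, the assembly of mm10), with each CG in capitals.
Zfp940, chr7:29853649-29853898, minus strand: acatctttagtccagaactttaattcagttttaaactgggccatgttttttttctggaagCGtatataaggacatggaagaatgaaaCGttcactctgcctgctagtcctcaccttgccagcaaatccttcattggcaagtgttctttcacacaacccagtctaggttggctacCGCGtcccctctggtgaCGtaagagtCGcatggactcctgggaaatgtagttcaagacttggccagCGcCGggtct
Glrx2, chr1:143739099-143739348, plus strand: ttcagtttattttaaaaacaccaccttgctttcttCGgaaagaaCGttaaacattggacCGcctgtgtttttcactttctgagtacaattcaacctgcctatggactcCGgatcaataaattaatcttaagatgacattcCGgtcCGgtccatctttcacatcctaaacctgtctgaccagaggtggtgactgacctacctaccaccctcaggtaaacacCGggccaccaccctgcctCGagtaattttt
Tom1l1, chr11:90687602-90687851, minus strand: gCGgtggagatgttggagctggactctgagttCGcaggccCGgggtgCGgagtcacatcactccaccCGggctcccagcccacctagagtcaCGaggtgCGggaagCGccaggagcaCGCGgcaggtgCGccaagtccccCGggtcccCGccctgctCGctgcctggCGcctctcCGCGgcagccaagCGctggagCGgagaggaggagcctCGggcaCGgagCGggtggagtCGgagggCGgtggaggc
Gm52396, chr19:38015410-38015659, plus strand: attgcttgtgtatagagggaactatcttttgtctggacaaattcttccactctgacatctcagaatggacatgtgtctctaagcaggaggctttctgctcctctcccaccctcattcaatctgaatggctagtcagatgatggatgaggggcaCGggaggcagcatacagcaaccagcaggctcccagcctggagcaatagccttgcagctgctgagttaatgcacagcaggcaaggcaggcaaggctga
These stretches hold 8, 8, 24 and 1 CpG. Their regions are described with the promoters and the named regions below.

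No single region passed the test of the interaction. Of the 138505 regions, 0 were called higher and 0 lower (0.0% in either direction; limma, Benjamini-Hochberg adjusted p under 0.05), and the lowest adjusted p was 0.796. At an unadjusted p under 0.05 there were 4729 regions with a positive interaction (3.41%) and 3394 with a negative one (2.45%), together 5.86%. The median SE of an interaction was 0.31 log2, against 0.22 for a diet effect in 1 genotype. In simulated data of the same size the same fit called 11 of 100 interactions of 1 log2 and 66 of 100 of 2 log2, so most differences of 1 log2 would not be called in a single region with 3 mice per group. The count of 0 depended on how peaks were matched: with 50% reciprocal overlap 40 regions were called higher and 34 lower, and in 500 bp windows 7 and 9. Under 50% reciprocal overlap, a peak narrower than 50% of its merged region counts as absent. Its library then takes the lowest value of the scale.

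Over all regions together, the DDC response was smaller in Fbxl5-deleted mice and ran in nearly the same direction. The size of the response was taken as the root mean square of the diet effect over regions, computed from products between different libraries so that the noise of single libraries does not add to it. It was 0.290 log2 in Fbxl5-deleted mice and 0.370 log2 in floxed controls, a ratio of 0.785, which ranged from 0.743 to 0.834 when 1 library was left out. The mean squared effects differed by −0.0524 (exact permutation of genotype within each diet, two-sided, 400 relabellings, p = 0.02, where 0.005 is the smallest it can give). This test asks whether the genotype labels could be exchanged within each diet. The difference no longer passed without Fbxl5-deleted standard replicate 2 (−0.0465, p = 0.06) or without Fbxl5-deleted DDC replicate 1 (−0.0495, p = 0.075), 2 (−0.0582, p = 0.06) or 3 (−0.0495, p = 0.09; exact permutation tests). It also missed the threshold in the 61659 regions held by all 12 lists (−0.0292, p = 0.075) and on fold enrichments without ranks (−0.104, p = 0.155, exact permutation).

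The effects in Fbxl5-deleted mice regressed on those in controls with a noise-corrected slope of 0.776, whereas the reverse slope, controls on deleted, was 1.26. The noise-corrected correlation of the effects across regions was 0.988, over regions that share the same 12 libraries. A slope under 1 in one direction and over 1 in the other describes effects that are scaled rather than scattered. The slope was 0.82 without Fbxl5-deleted standard libraries 1 and 3 together. It was 0.506 with all deposited peaks in place of lists of equal length, where the mean squared effects differed by −0.203 (exact permutation, p = 0.01). The median interaction was −0.36 in that setting and 0.011 in the main one. This shift enters the slope and the difference there, so nothing is read from them. Of the size of the interaction itself (root mean square 0.0946 log2, one-sided exact permutation p = 0.145), 76.9% lay along the control DDC effect. That share was 96.6% in the weak tertile and 18.6% at gene ends.

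**Figure D1:**
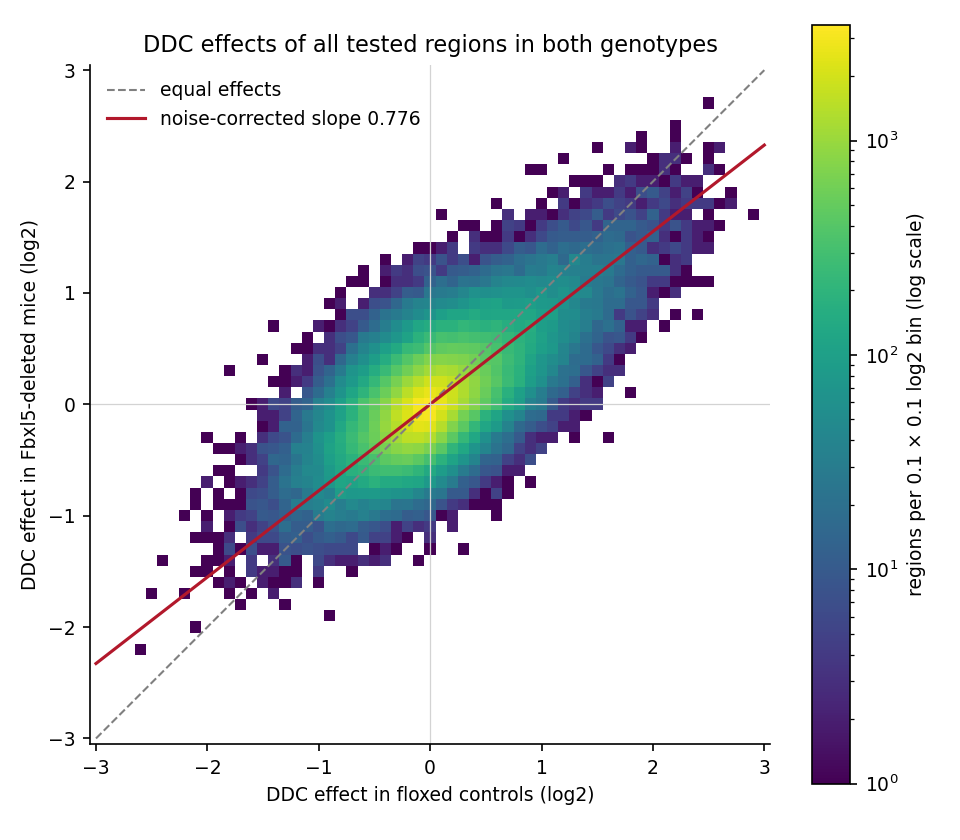
DDC effects (DDC minus standard diet, log2) of the 138505 regions in Fbxl5-deleted mice (vertical axis) against floxed controls (horizontal axis), with colour giving the number of regions per bin on a log scale. The solid line is the noise-corrected slope of 0.776, which is flatter than the dashed line of equal effects; the plotted cloud includes library noise.

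The slope can also be shown by library, which is no second test of it. Each library was placed on the diet axis of the controls, with 0 at the mean of the control standard libraries and 1 at the mean of the control DDC libraries, and control libraries were scored without their own contribution. Fbxl5-deleted DDC libraries lay at 0.80, 0.87 and 0.84, and Fbxl5-deleted standard libraries at 0.09, 0.02 and 0.07. Control DDC libraries lay at 1.04, 1.03 and 0.93, and control standard libraries at 0.05, −0.003 and −0.05. Over all regions the 3 Fbxl5-deleted DDC libraries were all below the 3 control DDC libraries, and on the standard diet the genotypes overlapped. On the axis of the Fbxl5-deleted libraries, Fbxl5-deleted DDC libraries lay at 0.94 to 1.05 and control DDC libraries at 1.11 to 1.39. Fbxl5-deleted standard libraries spread from −0.56 to 0.48 there, with control standard libraries at −0.08 to 0.04. In 4 classes the positions overlapped on DDC too. Fbxl5-deleted DDC libraries lay at 0.741 to 0.860 and control DDC libraries at 0.454 to 1.79 at gene ends, and at 0.848 to 0.907 and 0.843 to 1.17 in the strong tertile. In the wide tertile they lay at 0.828 to 0.890 and 0.807 to 1.2, and in regions of all 12 lists at 0.840 to 0.895 and 0.774 to 1.23. Each control library has its own axis, made without it, while all Fbxl5-deleted libraries share 1 axis. The spreads of the genotypes are thus not comparable, and nothing is read from an overlap or its absence. At gene ends on the axis of the Fbxl5-deleted libraries, the wider spread was in Fbxl5-deleted DDC (0.208 to 2.20), with control DDC at 1.11 to 1.45. Over all regions on the control axis, Fbxl5-deleted DDC libraries averaged 0.837 ± 0.037 and Fbxl5-deleted standard libraries 0.061 ± 0.041 (SD, n = 3 each). The difference of these 2 means is the slope of 0.776 by construction. Control DDC and control standard means are 1 and 0 by construction, and the control DDC SD of 0.063 comes from axes that differ between libraries. In the weak tertile the Fbxl5-deleted DDC libraries lay at 0.729 ± 0.085 and the Fbxl5-deleted standard libraries at 0.122 ± 0.088.

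**Figure D2:**
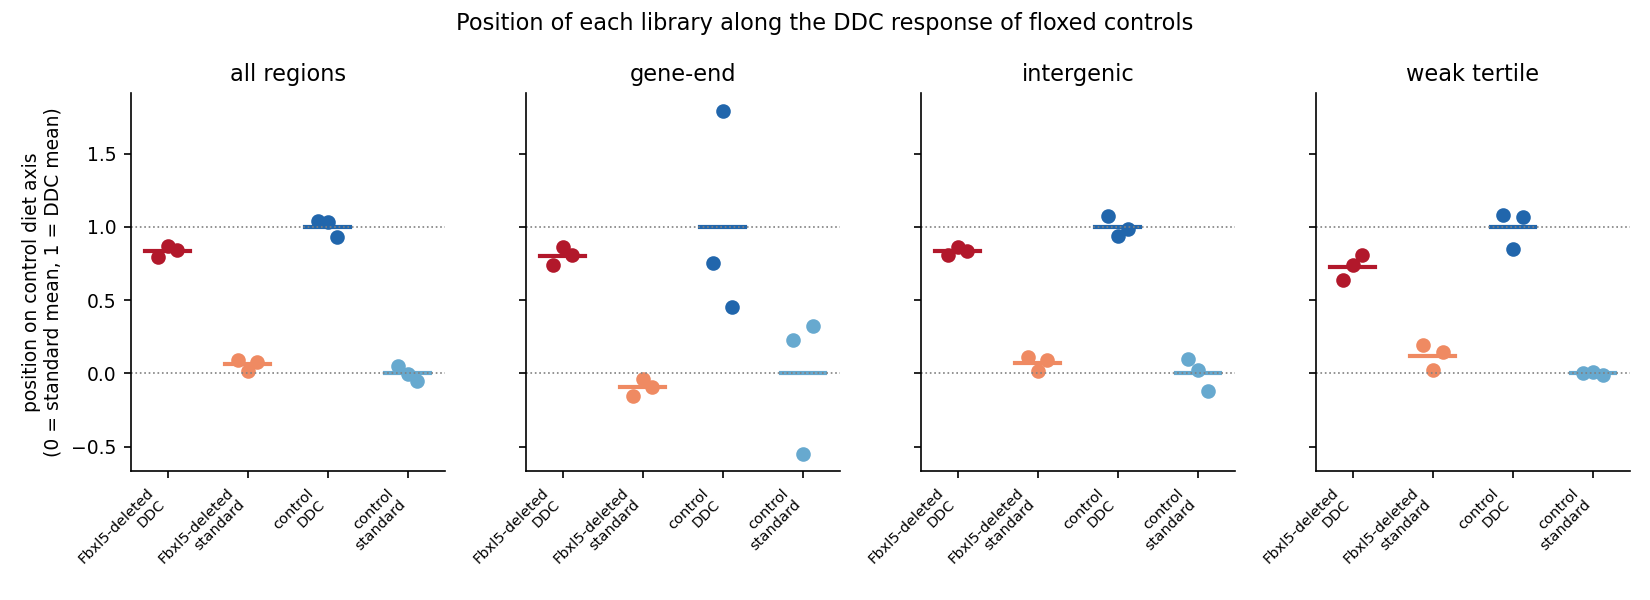
Position of each library on the control diet axis (0, control standard mean; 1, control DDC mean) for all regions, gene-end regions, intergenic regions and the weak tertile. Points are libraries and bars are means of 3. Over all regions Fbxl5-deleted DDC libraries sit at 0.80 to 0.87 and control DDC libraries at 0.93 to 1.04. Each control library is scored on an axis made without it, so the spread of control points is not comparable with that of Fbxl5-deleted points.

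Fewer regions were called in Fbxl5-deleted mice than in controls. DDC raised 3351 regions (2.42%) and lowered 1027 (0.741%) in Fbxl5-deleted mice, and raised 6478 (4.68%) and lowered 3264 (2.36%) in floxed controls (limma, adjusted p under 0.05). In either direction that was 3.16% of regions in Fbxl5-deleted mice and 7.03% in controls. Of all 138505 regions, those held by 3 of 3 DDC and 0 of 3 standard lists numbered 3466 in Fbxl5-deleted mice and 5391 in controls. The reverse pattern, 0 of 3 DDC and 3 of 3 standard lists, had 886 and 2473 regions. No count was tested between genotypes. The list counts rest on standard lists that were not alike. Fbxl5-deleted standard libraries 1 and 3 had 46942 and 56364 peaks at a −log10 q of 5, against 65933 to 70507 in control standard libraries. The part of this in the counts was not tested. Most called regions had effects of the same sign in both genotypes. Of the 3351 raised in Fbxl5-deleted mice 96.9% had a positive effect in controls, where their median was 1.04 log2, against 1.13 in Fbxl5-deleted mice. Of the 6478 raised in controls 93.5% had a positive effect in Fbxl5-deleted mice, with a median of 0.70 there and 1.06 in controls. Regions lowered in Fbxl5-deleted mice had medians of −0.98 in them and −0.72 in controls, and regions lowered in controls had −0.44 in Fbxl5-deleted mice and −0.94 in controls. Each set was chosen by the effect in 1 genotype, which enlarges that genotype's median, so these medians only describe the sets. The 2 diet effects share no library.

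By distance to genes, the response was smaller inside and between genes, and gene ends did not show a difference that passed. In intragenic regions the size was 0.286 log2 in Fbxl5-deleted mice and 0.368 in controls (ratio 0.777), and in intergenic regions 0.322 and 0.415 (ratio 0.775). The squared sizes differed by −0.0536 and −0.0686 (exact permutation, adjusted p = 0.045 over the 18 class tests for both). At gene ends the sizes were 0.215 and 0.233 (ratio 0.923, difference −0.0081, adjusted p = 0.714, exact permutation), and leaving out 1 library moved the ratio between 0.842 and 1.04. DDC effects were called at 1.24% of gene-end regions in Fbxl5-deleted mice and 2.52% in controls. In intergenic regions these shares were 4.11% and 8.94%, and in intragenic regions 3.03% and 6.97%. The relative difference in size at gene ends (−0.080) was not distinguished from that in intragenic (−0.247) or intergenic regions (−0.249; exact permutation, adjusted p = 0.242 for both over 9 pairs).

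By strength, the ratio was 0.611 in the weak tertile, where the filter on lists bears on the values. A region held by few lists passes the minimum of 3 libraries through the libraries in which it is high. The ratio in the weak tertile is thus a description, and nothing is read from its p-value with the filter. In the weak tertile the sizes were 0.133 log2 in Fbxl5-deleted mice and 0.218 in controls (difference −0.0297, adjusted p = 0.045, exact permutation). With no filter, where the tertiles come from all 292589 regions, the weak tertile had a difference of −1.24e-05 (adjusted p = 0.57, exact permutation). Only 138505 of these regions passed the filter, so that tertile is another set of regions. It does not show what the filter does to the filtered weak tertile. In the middle tertile of the filtered regions, which held the largest effects in both genotypes, the sizes were 0.384 and 0.497 (ratio 0.774, difference −0.0991, adjusted p = 0.045, exact permutation). In the strong tertile they were 0.296 and 0.341 (ratio 0.869, difference −0.0285), which did not pass (exact permutation, adjusted p = 0.3). By width, the ratios were 0.700 in the narrow tertile (150 to 219 bp, adjusted p = 0.045), 0.774 in the medium tertile (adjusted p = 0.045) and 0.829 in the wide tertile (335 bp or more, adjusted p = 0.129; exact permutation tests). The filter bears on the narrow tertile too, where 34861 of 46169 regions were weak and the median region was in 5 lists. Its ratio is thus also a description, and nothing is read from its p-value with the filter. With no filter the narrow tertile, which is also another set of regions, had a difference of −0.000821 (adjusted p = 0.0771, exact permutation). Relative differences between strength classes or width classes did not pass either (lowest adjusted p = 0.072, exact permutation, 9 pairs). Width and strength overlap, since 79.9% of the strong tertile was also in the wide tertile. Within the wide tertile the ratio was 0.607 for its weak, 0.787 for its middle and 0.868 for its strong regions. Within the narrow tertile it was 0.648 for weak, 0.738 for middle and 1.22 for strong regions, of which there were 58. Only 0.0173% of the weak tertile was held by all 12 lists, against 98.3% of the strong tertile, and a region absent from a list takes the lowest value, so effects in the weak tertile rest largely on presence or absence. The class differences are fragile: 9 or 10 of the 12 libraries, when left out, took each of these 6 adjusted p-values over 0.05. Intergenic, intragenic, weak and narrow regions stayed under it without control standard replicate 1 or control DDC replicate 1 or 3.

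**Figure D3:**
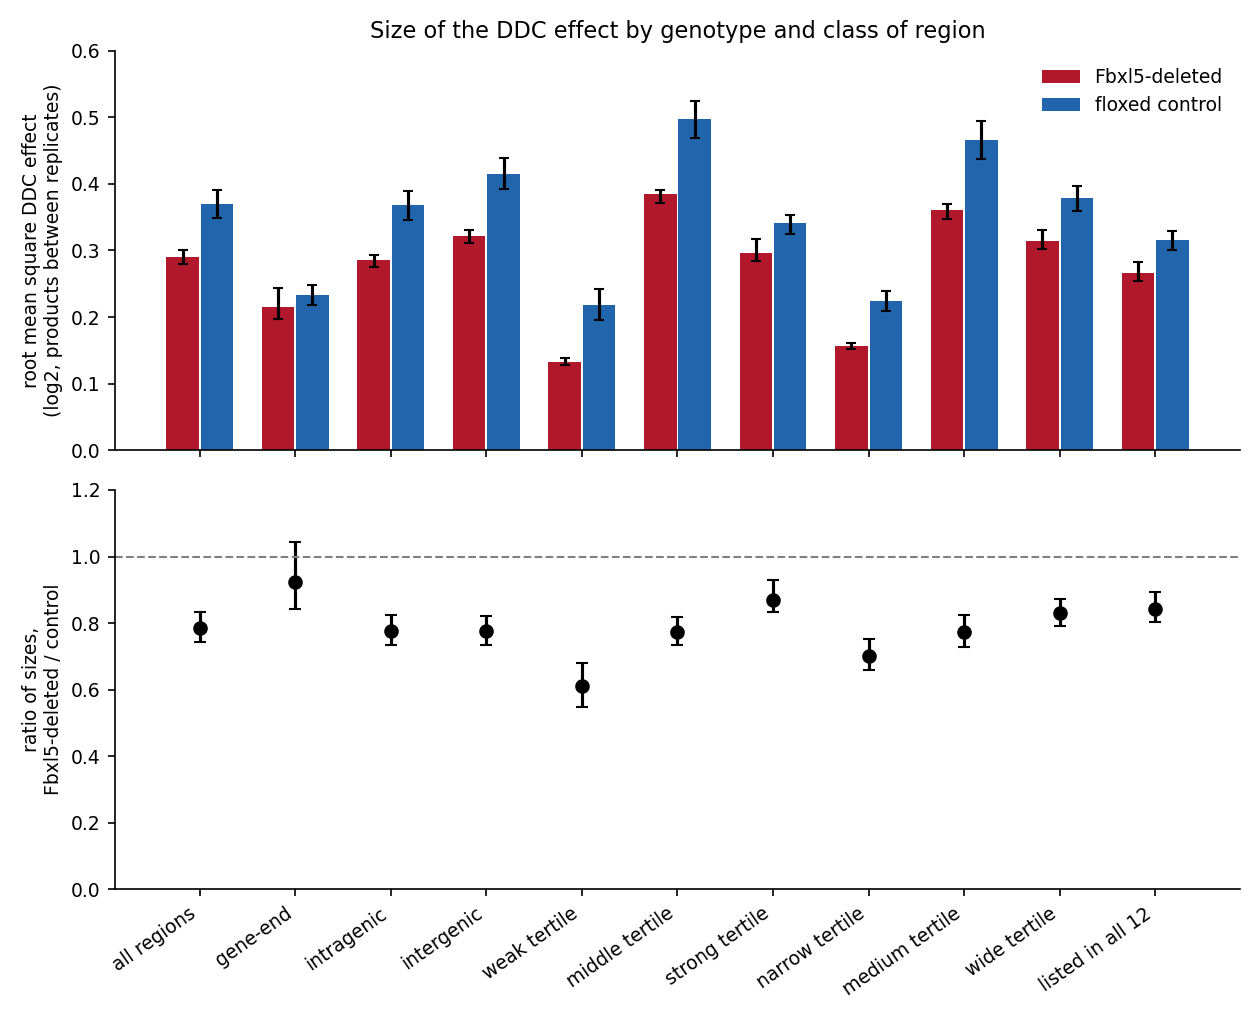
Root mean square DDC effect (log2) in Fbxl5-deleted mice (left bars) and floxed controls (right bars) for each class of regions, and below it the ratio of the 2, where the dashed line marks equal sizes. Bars and points are values from all 12 libraries, and error bars span the values with 1 library left out; the ratio is 0.611 in the weak tertile and 0.923 at gene ends.

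The mean interaction of a class, which asks whether a class as a whole opened or closed more in one genotype, passed in none of the 9 classes (exact permutation, adjusted p = 0.3 to 0.91). It was 0.023 log2 over all regions, −0.025 ± 0.026 (SE) at gene ends, 0.028 ± 0.025 in intragenic and 0.036 ± 0.038 in intergenic regions. Gene-end regions had mean values of 2.72, 2.68 and 2.74 log2 in Fbxl5-deleted DDC, 2.78, 2.74 and 2.77 in Fbxl5-deleted standard, 2.72, 2.69 and 2.73 in control DDC and 2.75, 2.72 and 2.75 in control standard libraries. Library 2 was the lowest in each of these groups, and the diet difference was of the order of the spread between libraries.

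No chromosome stood apart. The ratio of sizes was under 1 on all 20 chromosomes and ranged from 0.747 on chromosome 15 to 0.807 on chromosome 9. By the number of lists that hold a region, the ratio was 0.480 for regions in 3 lists, 0.731 in 6, 0.851 in 11 and 0.841 in all 12. Regions in few lists are also the weakest, and those in 3 lists sit at the limit of the filter. Of these 14777 regions, the 3 lists were those of a single group for 83 in Fbxl5-deleted DDC, 67 in Fbxl5-deleted standard, 483 in control DDC and 275 in control standard. A region held only by the 3 lists of a group had to differ between diets in that genotype, so nothing is read from the order of these ratios, and these splits were given no test.

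**Figure D4:**
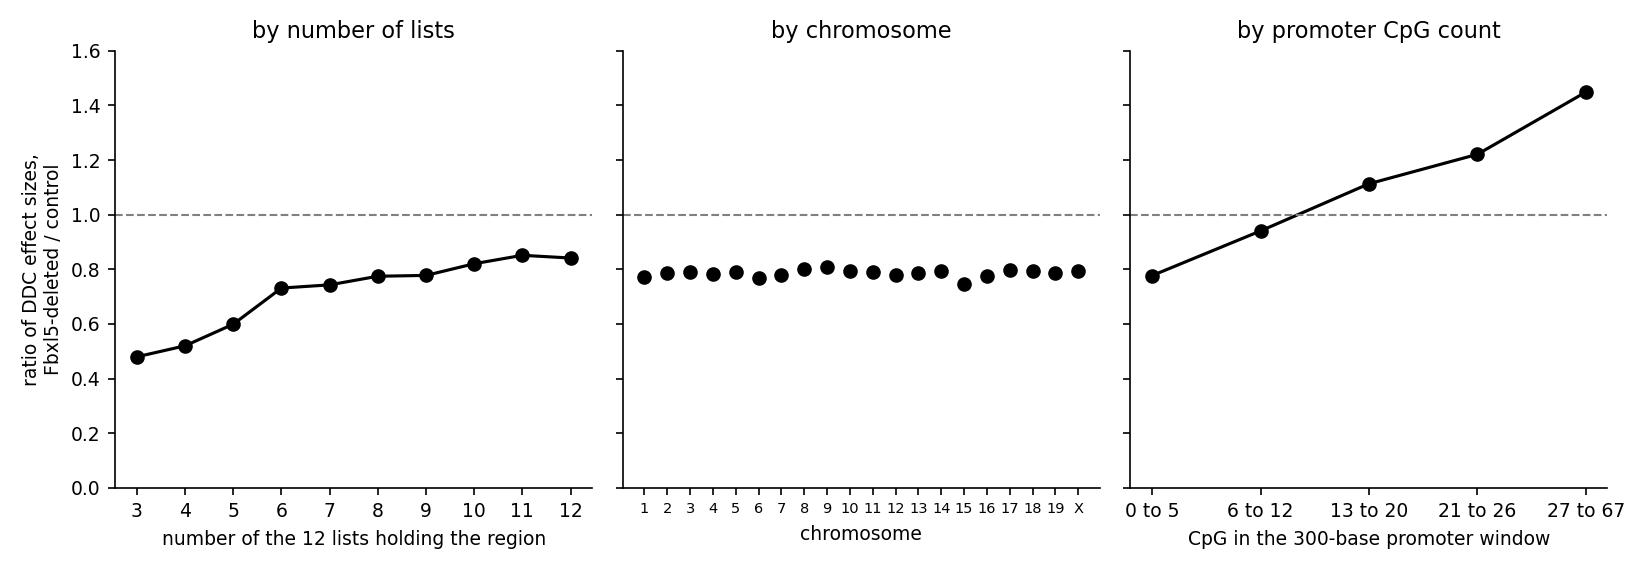
Ratio of DDC effect sizes, Fbxl5-deleted over control, by the number of lists that hold a region (left), by chromosome (middle) and by the number of CpG in the promoter window a region overlaps (right). The dashed line marks equal sizes; all chromosomes lie between 0.747 and 0.807, and the ratio goes from 0.777 at promoters with 0 to 5 CpG to 1.45 at those with 27 to 67.

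Within gene ends, promoters and other ends differed in value. Of the gene-end regions, 9403 overlapped a RefSeq promoter window (300 bases, from 250 before the start to 50 after it) and had sizes of 0.203 log2 in Fbxl5-deleted mice and 0.182 in controls, a ratio of 1.11. The 10743 without a window had 0.226 and 0.270, a ratio of 0.834. Over all 12406 tested regions with a window, the ratio was 0.777 at those with 0 to 5 CpG, 0.940 with 6 to 12, 1.11 with 13 to 20, 1.22 with 21 to 26 and 1.45 with 27 to 67. The sizes at 0 to 5 CpG were 0.278 and 0.358 (n = 1834 regions), and at 27 to 67 CpG 0.210 and 0.145 (n = 3762 regions). The most CpG-rich promoters had a mean DDC effect of −0.15 log2 in Fbxl5-deleted mice and −0.06 in controls, an interaction of −0.093 ± 0.061 (SE). No difference in size or in mean interaction passed in any of the 5 groups of promoters (exact permutation, lowest adjusted p = 0.45 over 10 tests). Libraries of 1 group spread as widely: at 27 to 67 CpG the means were 3.24, 3.17 and 3.27 in Fbxl5-deleted DDC, 3.45, 3.30 and 3.39 in Fbxl5-deleted standard, 3.24, 3.18 and 3.26 in control DDC and 3.30, 3.25 and 3.31 in control standard libraries. The Fbxl5-deleted standard libraries 1 and 3, which stood apart in peak number, were the 2 highest of all 12.

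DDC effects of both genotypes were called in the same direction at 25 of the 1834 regions with a promoter window of at most 5 CpG (1.36%), 23 higher and 2 lower, beside 2660 of all 138505 regions (1.92%). Of those 25 regions, 13 were in all 12 lists. Chromosome 18 was left out when a region was chosen from them by largest summed effect. The chosen one lies at Gm52396, a predicted gene (chromosome 19, 38015520 to 38016128), whose sequence is given above. Its values were 4.11, 4.10 and 4.05 log2 in Fbxl5-deleted DDC, 3.03, 2.69 and 2.56 in Fbxl5-deleted standard, 4.13, 4.15 and 4.00 in control DDC and 2.41, 2.39 and 2.27 in control standard libraries. DDC libraries were above standard libraries in both genotypes, without overlap. The DDC effect was 1.33 ± 0.16 in Fbxl5-deleted mice and 1.74 ± 0.16 in controls (limma, adjusted p = 0.000129 and 4.32e-06), and the interaction was −0.41 ± 0.23.

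The regions of lowest interaction p are named here although none passed (adjusted p = 0.846 for each, limma). They were taken among regions in all 12 lists, 10 in each direction. The DDC effects of the genotypes had opposite signs in 9 of the 10 higher and 7 of the 10 lower ones, and 9 of 10 in each direction were in the strong tertile. Interactions were 0.83 to 1.63 log2 for the higher and −1.38 to −0.55 for the lower ones. Their estimates are the extremes of many, so their size is exaggerated by the choice.

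Among the higher ones were 2 intergenic regions whose nearest genes were Mtm1 and Mtmr3, which encode phosphoinositide phosphatases. The region 23885 bp from Mtm1 (chromosome X, 71186341 to 71186882) had 2.94, 3.43 and 3.33 log2 in Fbxl5-deleted DDC and 2.49, 2.25 and 2.14 in Fbxl5-deleted standard libraries. In controls it had 2.96, 2.60 and 3.09 on DDC and 3.27, 3.71 and 3.25 on the standard diet. DDC libraries were thus higher in Fbxl5-deleted mice and lower in controls, without overlap between diets (interaction 1.47 ± 0.30 SE). The region 14215 bp from Mtmr3 (chromosome 11, 4465995 to 4466652) was raised by DDC in Fbxl5-deleted mice (1.04 ± 0.22, limma, adjusted p = 0.0100) and had −0.30 ± 0.22 in controls.

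The promoter region of Zfp940, a zinc finger gene, had 4.23, 4.12 and 4.34 log2 in Fbxl5-deleted DDC, 3.84, 3.85 and 3.65 in Fbxl5-deleted standard, 3.62, 3.88 and 3.84 in control DDC and 4.10, 4.07 and 4.28 in control standard libraries (chromosome 7, 29853142 to 29854040). The DDC effect was 0.45 ± 0.12 in Fbxl5-deleted mice (limma, adjusted p = 0.0433) and −0.37 ± 0.12 in controls (adjusted p = 0.0660), an interaction of 0.83 ± 0.17. A region inside Hephl1, which encodes a ferroxidase of the hephaestin family (chromosome 9, 15063952 to 15064899), had 3.65, 4.01 and 4.08 in Fbxl5-deleted DDC and 3.18, 3.51 and 3.68 in Fbxl5-deleted standard libraries, which overlapped. In controls it had 3.62, 3.54 and 3.12 on DDC and 4.19, 4.11 and 3.89 on the standard diet, a fall of −0.63 ± 0.17 (limma, adjusted p = 0.0250). Its interaction of 1.09 ± 0.24 turned to −1.69 with 50% reciprocal overlap, where narrow peaks count as absent. The part of such peaks in this change of sign, or in those given below, was not tested.

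A region inside Ctbp2, a transcriptional corepressor gene (chromosome 7, 133003358 to 133003977), had 3.15, 3.38 and 3.25 log2 in Fbxl5-deleted DDC and 1.81, 2.02 and 2.19 in Fbxl5-deleted standard libraries, a rise of 1.25 ± 0.21 (limma, adjusted p = 0.00232). In controls it had 2.87, 2.53 and 2.41 on DDC and 2.78, 2.75 and 2.66 on the standard diet, which overlapped. The Acot11 region (chromosome 4, 106790703 to 106791654), inside a gene for an acyl-CoA thioesterase, did the reverse. It had 3.37, 3.41 and 3.56 in Fbxl5-deleted DDC and 3.60, 3.65 and 3.48 in Fbxl5-deleted standard libraries, and 2.55, 2.14 and 2.52 in control DDC and 3.49, 3.63 and 3.43 in control standard libraries. The control DDC libraries alone were low, and the fall of −1.11 ± 0.17 was called in controls (limma, adjusted p = 0.000356). DDC also lowered regions in controls near Erg, an endothelial ETS factor (−1.37 ± 0.22), in the F-box gene Fbxo42 (−1.02 ± 0.22), in Pappa2, a protease of IGF-binding proteins (−1.61 ± 0.27), and near the sorting receptor gene Sorl1 (−1.01 ± 0.25; limma, adjusted p = 0.000676, 0.00774, 0.000845 and 0.0162). The same regions had 0.05, 0.36, 0.02 and 0.47 log2 in Fbxl5-deleted mice, where none was called.

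**Figure D5:**
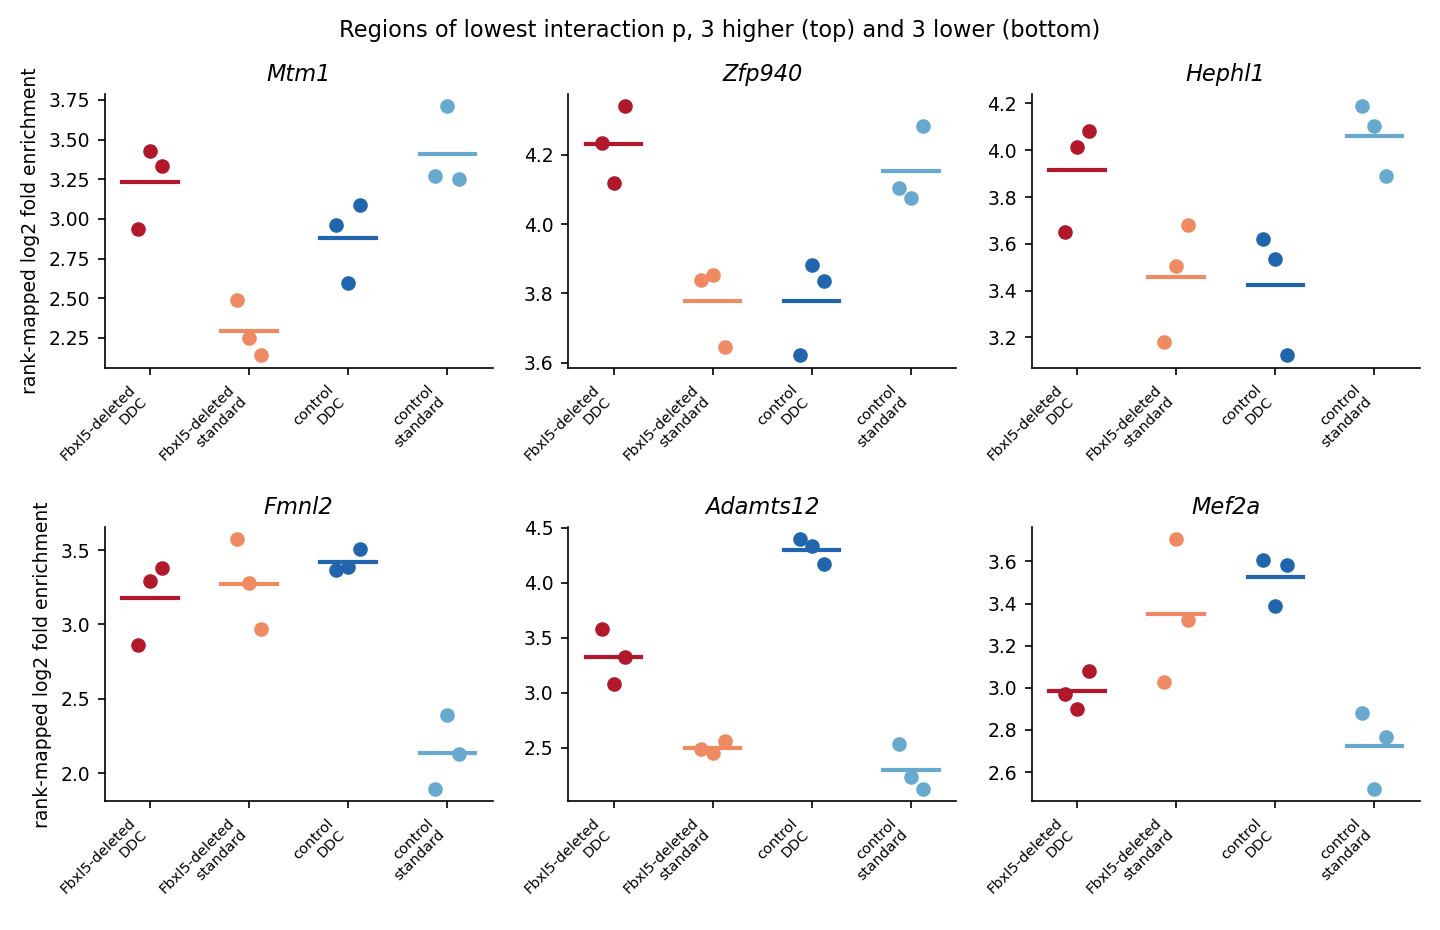
Rank-mapped log2 fold enrichment in each library at the 3 regions of lowest interaction p in each direction among those in all 12 lists, with bars at the means of 3. At Mtm1, Zfp940 and Hephl1 the DDC mean lies above the standard mean in Fbxl5-deleted mice and below it in controls, and at Adamts12 DDC lies above standard in both genotypes; vertical axes do not start at 0.

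Among the lower ones, the largest DDC effects were at Rab3gap2 and Adamts12. The region inside Rab3gap2, a regulator of Rab GTPases (chromosome 1, 185229608 to 185230354), had 3.41, 4.09 and 3.76 log2 in Fbxl5-deleted DDC, 3.03, 2.18 and 2.85 in Fbxl5-deleted standard, 4.16, 4.47 and 4.14 in control DDC and 1.89, 1.68 and 1.93 in control standard libraries. DDC raised it in both genotypes, by 1.06 ± 0.22 in Fbxl5-deleted mice and by 2.42 ± 0.22 in controls (limma, adjusted p = 0.0101 and 4.32e-06). The region near Adamts12, a secreted metalloprotease gene (chromosome 15, 11364036 to 11364604), had 3.58, 3.08 and 3.32 in Fbxl5-deleted DDC, 2.49, 2.46 and 2.56 in Fbxl5-deleted standard, 4.39, 4.33 and 4.17 in control DDC and 2.54, 2.24 and 2.13 in control standard libraries. It rose by 0.82 ± 0.18 in Fbxl5-deleted mice and by 2.00 ± 0.18 in controls (limma, adjusted p = 0.0159 and 4.32e-06). In both regions all DDC libraries were above all standard libraries of their genotype.

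At the formin gene Fmnl2 (chromosome 2, 53000289 to 53001010) the control standard libraries stood alone, with 1.89, 2.39 and 2.13 log2 against 3.37, 3.38 and 3.51 in control DDC libraries. Fbxl5-deleted libraries were at 2.86, 3.29 and 3.38 on DDC and 3.57, 3.28 and 2.97 on the standard diet. The interaction of −1.38 ± 0.30 turned to 0.51 with 50% reciprocal overlap. DDC raised the regions in Mef2a, a MADS-box transcription factor gene (0.80 ± 0.19), near Mrpl36, of the mitochondrial ribosome (0.90 ± 0.12), and near the chemokine gene Ccl21b (0.93 ± 0.21) in controls (limma, adjusted p = 0.0128, 0.000103 and 0.0105). In Fbxl5-deleted mice these had −0.37, 0.21 and −0.29 and were not called. Ccl21b has near-identical copies, so its region is uncertain.

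The Glrx2 region, at the promoter shown above (chromosome 1, 143739170 to 143740303), had 3.59, 3.62 and 3.40 log2 in Fbxl5-deleted DDC, 4.25, 3.96 and 4.20 in Fbxl5-deleted standard, 3.93, 3.77 and 4.01 in control DDC and 3.91, 3.54 and 3.56 in control standard libraries. Glrx2 encodes a mitochondrial glutaredoxin that can bind an iron-sulfur cluster. The region fell by 0.60 ± 0.14 on DDC in Fbxl5-deleted mice (limma, adjusted p = 0.0200) and had 0.24 ± 0.14 in controls, where the diets overlapped. The Tom1l1 promoter region, of an endosomal sorting adaptor gene (chromosome 11, 90686944 to 90688143), had 4.11, 4.13 and 4.11 in Fbxl5-deleted DDC, 4.44, 4.33 and 4.49 in Fbxl5-deleted standard, 4.30, 4.16 and 4.32 in control DDC and 4.03, 3.92 and 4.09 in control standard libraries. Neither of its diet effects was called (−0.30 ± 0.10 and 0.25 ± 0.10; limma, adjusted p = 0.114 and 0.154). The remaining 2 regions lay near the receptor gene Gpr142 and near Fam168a, with interactions of −0.89 ± 0.22 and −1.07 ± 0.28.

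Genes of 20 lists were then read against these backgrounds. No list had a called interaction (0 higher and 0 lower in each), and the median interaction of a list lay between −0.11 and 0.06 log2, beside 0.01 over all regions. The ratio of DDC effect sizes was under 1 in all 20 lists, with a median of 0.814 beside 0.785 over all regions. For the iron genes, the ratio was 0.834 over 255 regions of 24 iron handling genes and 0.799 over 93 regions of 14 heme genes. Of the iron handling regions 5 had a positive and 5 a negative interaction at an unadjusted p under 0.05 (3.92%, beside 5.86% of all regions), and of the heme regions 1 and 1 (2.15%). At Bmp6, the ligand that tells hepatocytes to make hepcidin, a region inside the gene (chromosome 13, 38377414 to 38377883) had 2.60, 2.80 and 2.14 log2 in Fbxl5-deleted DDC and 1.37 and 2.19 in Fbxl5-deleted standard libraries 2 and 3, and was absent from library 1. In controls it had 1.66, 2.24 and 1.91 on DDC and 2.09, 2.39 and 2.66 on the standard diet (interaction 1.35 ± 0.42, limma, adjusted p = 0.846). Near Bach1, the heme-sensing repressor, a region had a DDC effect of 0.99 ± 0.28 in Fbxl5-deleted mice (limma, adjusted p = 0.0588) and −0.21 ± 0.28 in controls.

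For bile and oxidative stress, the ratio was 0.974 over 254 bile acid transport regions, 0.924 over 182 bile acid synthesis regions and 0.877 over 213 regions of NRF2 targets, among the higher ones. A region inside Abcb4, the phospholipid flippase of the canaliculus (chromosome 5, 8947444 to 8947811), had 4.14, 3.91 and 4.00 log2 in Fbxl5-deleted DDC, 3.84, 4.06 and 4.19 in Fbxl5-deleted standard, 3.81, 3.66 and 3.91 in control DDC and 4.34, 4.28 and 4.43 in control standard libraries. It fell by 0.56 ± 0.12 on DDC in controls (limma, adjusted p = 0.00726), and in Fbxl5-deleted mice the diets overlapped (−0.02 ± 0.12). Inside Slc7a11, the cystine importer gene, a region was held by 3 of 3 control DDC lists and 0 of 3 control standard lists, and by 2 Fbxl5-deleted DDC lists and 1 Fbxl5-deleted standard list. A region inside Il33, an alarmin gene, was likewise in 3 of 3 control DDC and 0 of 3 control standard lists, and in 2 Fbxl5-deleted DDC and 0 Fbxl5-deleted standard lists. Near Pparg, a nuclear receptor gene of lipid storage, DDC raised a region by 0.87 ± 0.14 in controls (limma, adjusted p = 0.000826) and the value of 0.14 ± 0.14 in Fbxl5-deleted mice was not called. The interactions at these 4 regions did not pass (limma, adjusted p = 0.846).

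Lists of signalling and growth genes spread more. The ratio was 0.977 over 276 regions of TGF-beta and YAP genes. Of these, DDC raised 15 and lowered 0 in Fbxl5-deleted mice (5.43% and 0.0%), and raised 19 and lowered 4 in controls (6.88% and 1.45%). Over 137 regions of AP-1 and early response genes the ratio was 0.869, with 8 raised and 3 lowered in Fbxl5-deleted mice (5.84% and 2.19%) and 12 and 4 in controls (8.76% and 2.92%). Over all regions these shares were 2.42% raised and 0.741% lowered in Fbxl5-deleted mice and 4.68% and 2.36% in controls, and the lists were not tested against them. It was 0.513 for cell cycle and p53 genes (69 regions) and 0.592 for drug metabolism genes (136 regions). It was 0.846 for inflammation, 0.762 for lipid metabolism, 0.880 for zonation and Wnt, 0.929 for stress response and ferroptosis and 0.773 for hypoxia genes. Lists of few regions give the least certain ratios.

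Several regions of lowest p in their lists rested on presence in 1 or 2 groups, where a difference has no true size. Regions near Hsd17b4, an enzyme of bile acid side-chain oxidation, Ehf, an epithelial ETS factor gene, and Hif1a, the oxygen-sensing factor gene, were in 3 of 3 control standard lists and in 0 of the other 9. A region inside the glutamate transporter gene Slc1a2 was in 3 of 3 control DDC lists and in 0 of the other 9. A region near Yap1, a growth co-activator gene, was in 3 of 3 Fbxl5-deleted DDC and 3 of 3 control standard lists and in 0 of the lists of the other 2 groups. Inside Reln, of the stellate list, a region was raised by DDC in Fbxl5-deleted mice (1.3 ± 0.25, limma, adjusted p = 0.00663) and had 0.07 ± 0.25 in controls, but its interaction of 1.23 ± 0.36 turned to −0.31 with 50% reciprocal overlap. The region near Klf4, an early response factor gene, had 0.34 ± 0.15 in Fbxl5-deleted mice and −0.29 ± 0.15 in controls, and its interaction of 0.63 ± 0.21 turned to −1.34 there.

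Markers of other liver cells were read in the same way, since the perfusion can leave such cells. Hepatocyte markers had a ratio of 0.829 (315 regions of 20 of 20 genes, sizes 0.218 log2 in Fbxl5-deleted mice and 0.263 in controls), and mean values of 2.07 to 2.13 log2 in Fbxl5-deleted DDC, 2.15 to 2.24 in Fbxl5-deleted standard, 2.05 to 2.09 in control DDC and 2.16 to 2.20 in control standard libraries. Ratios were 0.670 for cholangiocyte (135 regions), 0.718 for macrophage (53), 0.744 for stellate (62), 0.527 for endothelial (134) and 0.313 for lymphocyte markers (19 regions of 5 of 10 genes). The mean value over cholangiocyte regions was 2.18 to 2.24 log2 in Fbxl5-deleted DDC, 2.13 to 2.20 in Fbxl5-deleted standard, 2.16 to 2.25 in control DDC and 2.21 to 2.25 in control standard libraries. Over macrophage regions it was 2.15 to 2.24 in Fbxl5-deleted DDC, 2.00 to 2.09 in Fbxl5-deleted standard, 2.23 to 2.33 in control DDC and 2.04 to 2.06 in control standard libraries. Stellate regions had 2.16 to 2.24 in Fbxl5-deleted DDC, 1.92 to 2.05 in Fbxl5-deleted standard, 2.25 to 2.37 in control DDC and 2.00 to 2.06 in control standard libraries. Macrophage and stellate regions were thus higher on DDC in both genotypes without overlap. Endothelial regions had 2.35 to 2.38 in Fbxl5-deleted DDC, 2.21 to 2.34 in Fbxl5-deleted standard, 2.33 to 2.39 in control DDC and 2.25 to 2.31 in control standard libraries, so they were also higher on DDC without overlap. Lymphocyte regions had 2.29 to 2.37 in Fbxl5-deleted DDC, 2.43 to 2.51 in Fbxl5-deleted standard, 2.22 to 2.35 in control DDC and 2.46 to 2.49 in control standard libraries. Lymphocyte and hepatocyte regions were lower on DDC in both genotypes without overlap, and cholangiocyte regions overlapped between diets. The part of other cells in the interaction was not tested. Fewer cells of a type and less open chromatin per cell cannot be told apart in bulk libraries.

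The regions that DDC changed most in Fbxl5-deleted mice had effects of the same sign in controls. Of the 10 largest rises and 10 largest falls among regions in all 12 lists, which were chosen after their values were seen, 3 of 10 in each direction were larger in controls. The rises ranged from 1.95 to 2.26 log2 in Fbxl5-deleted mice and from 1.40 to 2.45 in controls. The falls ranged from −1.72 to −1.49 in Fbxl5-deleted mice and from −1.84 to −1.01 in controls. A region near Wdfy2, an endosomal adaptor gene (chromosome 14, 62825573 to 62826145), had 4.70, 4.44 and 4.70 in Fbxl5-deleted DDC, 2.88, 2.32 and 2.56 in Fbxl5-deleted standard, 4.85, 4.90 and 4.70 in control DDC and 2.41, 2.64 and 2.66 in control standard libraries. Its interaction was −0.22 ± 0.22 (limma, adjusted p = 0.925). A region inside Nfib, a nuclear factor I gene (chromosome 4, 82470892 to 82471495), fell by 1.62 ± 0.24 in Fbxl5-deleted mice and by 1.17 ± 0.24 in controls (limma, adjusted p = 0.000681 and 0.00490).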

How the data were processed

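Peak lists of 12 ATAC-seq libraries, 1 per mouse, were used as the authors deposited them, 1 list per library, so replicates had not been pooled. Per the submitters' processing notes, the build was mm10 and the tools included MACS2, Bowtie2, Picard, SAMtools, fastp, deepTools and bedtools. The sources used here give no versions, order or settings of these tools, and no shift of read ends. The deposited fold enrichment is a ratio of a peak's height to the background of its own library. The −log10 q and −log10 p columns were deposited as the peak caller gave them, and no list holds a −log10 p under 1.30, a p-value of about 0.05. The deposited score was not used.

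Summits of 1 peak were merged, and each library kept its strongest 137004 peaks by fold enrichment, the length of the shortest list. Kept peaks with an overlap of 1 bp or more were merged, and regions in at least 3 of 12 libraries were tested. Values are ranks within a library mapped to the mean log2 distribution of the 12 libraries; where a list lacked the region, the lowest value, 1.27, was used. Each region was assigned to the shortest protein-coding gene it overlaps or the nearest within 50 kb (GRCm38.p6 table, without strand or exons, so exonic and intronic regions are not told apart), and 12.1% had none.

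limma 3.58.1 in R 4.3.3 (eBayes with trend and robust settings) was fitted to all regions with 4 group means, with two-sided p-values adjusted by the Benjamini-Hochberg method. Response sizes and class means were compared by exact permutation of genotype within diet. The interaction fit and the response size were tested on simulated data, and Python 3.11.15 with numpy 2.4.6, pandas 2.3.3, scipy 1.17.1 and matplotlib 3.10.9 was used for the rest. Named regions are the 10 of lowest unadjusted p in each direction among regions in all 12 lists, 1 per gene, because none passed, and the region of lowest p for each list of genes. The classes, lists and members were chosen with earlier results of these data known. The labels do not say that replicate numbers pair the libraries, so the main fit used no block.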

Additional observations from a re-analysis of the deposited data

Results flagged for a closer look

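Of the tests of whether the DDC response differs in size between genotypes, 7 passed. Over all regions the mean squared effect in Fbxl5-deleted mice minus that in floxed controls was −0.0524 (exact permutation, p = 0.02). By distance class it was −0.0536 in intragenic and −0.0686 in intergenic regions. By strength it was −0.0297 in the weak and −0.0991 in the middle tertile, and by width it was −0.0257 in the narrow and −0.0867 in the medium tertile (adjusted p = 0.045 for each of the 6, exact permutation). The classes share regions, so the 6 class results are not independent of each other or of the overall one. The filter on lists bears on the weak and narrow tertiles, so their differences are descriptions and nothing is read from their p-values. With no filter the weak tertile had −1.24e-05 (adjusted p = 0.57) and the narrow tertile −0.000821 (adjusted p = 0.0771, exact permutation). Those tertiles come from all 292589 regions, so they are other sets of regions and do not show what the filter does.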

How the results depend on the processing

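Sizes below are differences in mean squared DDC effect, Fbxl5-deleted minus control, tested by exact permutation. The call over all regions held in both matchings of peaks, with no filter on regions, on −log10 p ranks, with a −log10 q of at least 2 and with the replicate block. It was lost in regions of all 12 lists (−0.0292) and without ranks (−0.104). All deposited peaks gave −0.203 (exact permutation, p = 0.01), but the shift of the median interaction there enters the sizes, so nothing is read from that value. Leaving out 1 library gave −0.0686 to −0.0370. The class calls were less stable. In 500 bp windows adjusted p was 0.054 or 0.06 for intragenic (−0.0521), intergenic (−0.0692), weak (−0.0263), middle (−0.0919), narrow (−0.0252) and medium regions (−0.0812). With no filter, where the classes come from all 292589 regions and are thus other sets, it was 0.06 to 0.57 (intragenic −0.0247, intergenic −0.0309, weak −1.24e-05, middle −0.0110, narrow −0.000821, medium −0.0162). In all 12 lists it was 0.105 or 0.135 (intragenic −0.0371, intergenic −0.0406, weak −0.0419, middle −0.0389, narrow −0.0422, medium −0.0439). With a −log10 q of at least 2 it was 0.072 or 0.09 (intragenic −0.0423, intergenic −0.0531, weak −0.0295, middle −0.0729, narrow −0.0274, medium −0.0716). Without ranks it was 0.501 (intragenic −0.105, intergenic −0.129, weak −0.139, middle −0.162, narrow −0.0918, medium −0.162).

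The replicate block, which permutes replicate pairs, changes only the relabellings and leaves the sizes the same by construction (intragenic −0.0536, intergenic −0.0686, weak −0.0297, middle −0.0991, narrow −0.0257, medium −0.0867). The block gave adjusted p = 0.0938 for each (exact permutation), with 0 regions called. It has 64 relabellings and a smallest p of 0.0313, which all 6 reached; 6 of 18 tests at that floor give 0.0938, so nothing about stability is read from it. Correlations of same-numbered libraries were −0.024 to 0.057 over 18 pairs (mean 0.014). Those of other pairs were −0.043 to 0.026 over 36 pairs (mean −0.007). Pairs of replicate 2 libraries had 0.012 to 0.057. The labels do not say that the numbers are a pairing, and a small effect shared by libraries of 1 number was not tested. The middle tertile, taken from control standard strength, had −0.0450 (adjusted p = 0.147). Strong and wide regions passed on −log10 p ranks (−0.0315 and −0.0490, adjusted p = 0.0225). Gene-end sizes turned sign in all 12 lists (0.0039), at −log10 q of at least 2 (0.000524), at promoter windows only, chosen after seeing the data (0.0080), and within −0.0159 to 0.0047 without 1 library. Ranges without 1 library were −0.0695 to −0.0381 (intragenic), −0.0889 to −0.0501 (intergenic), −0.0411 to −0.0205 (weak), −0.127 to −0.0724 (middle), −0.0324 to −0.0189 (narrow) and −0.114 to −0.0616 (medium).

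All deposited peaks moved the median interaction by −0.36, to which their class means are relative: gene-end −0.36, intragenic −0.34, intergenic −0.36, weak −0.27, middle −0.42, strong −0.37, narrow −0.27, medium −0.40 and wide −0.39 (adjusted p = 0.025, exact permutation). There gene-end, strong and wide sizes also passed (−0.0795, −0.117 and −0.163), and the slope was 0.506. The shift enters these sizes and the slope, so nothing is read from them. Class mean interactions, which did not pass, otherwise turned sign without Fbxl5-deleted standard libraries 1 and 3 (intragenic −0.0097, intergenic −0.0175, weak −0.0176, middle −0.0181, narrow −0.0013, medium −0.0294, wide −0.0035), a setting in which response size needs 2 standard libraries and was not run. They turned without ranks (intragenic −0.0338, intergenic −0.0266, weak −0.219, narrow −0.136, medium −0.0164), with no filter (intergenic −0.00093, weak −0.0104, middle −0.0204, medium −0.0040), with 50% reciprocal overlap (gene-end 0.0139, weak −0.0110), in 500 bp windows (wide −0.0023), in all 12 lists (wide −0.0278) and at −log10 q of at least 2 (weak −6.4e-05, wide −0.0148). With strength from control standard libraries the weak and strong tertiles had −0.092 and 0.068 and passed (adjusted p = 0.0386); that split uses values that enter the interaction, so nothing is read from it. Without 1 library they ranged over −0.0077 to 0.0130 (weak), −0.0046 to 0.0657 (medium) and −0.0017 to 0.0125 (wide). The causes were not tested.

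Called interactions numbered 40 higher and 34 lower with 50% reciprocal overlap, 7 and 9 in 500 bp windows and 0 in every other setting run, the background and fold enrichment covariates included. Of the interactions of 39 named regions, 941 recomputed values kept their sign and 4 turned it, all 4 with 50% reciprocal overlap (Hephl1 −1.69, Fmnl2 0.51, Reln −0.31 and Klf4 −1.34). That matching sets libraries to the lowest value where their peaks are narrower than 50% of the region. The regions were chosen by p in these same data, and the settings share most libraries. Nothing about stability is thus read from this count. With no read counts, the depth of single peaks cannot be given.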
